A study of Homo sapiens with 10 samples.

Results

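The genes of cytoplasmic and nuclear mRNA decay, 34 in all, were followed in U2OS cells, a human osteosarcoma line, after loss of the DEAD-box RNA helicase DDX41. They were taken by gene symbol from the 63299 genes of the count tables and comprise the exosome (13 genes), the CCR4-NOT complex (11), the deadenylases PAN2, PAN3 and PARN, the decapping factors (5) and the exonucleases XRN1 and XRN2. RNA was collected 48 h after transfection with pooled siRNAs, as 5 control knockdown (siCtrl) and 5 DDX41 knockdown (siDDX41) libraries of polyadenylated RNA from the same line. Total counts lay between 21807041 and 24896398 per library. The labels number the libraries as replicates without saying whether they came from separate cultures, so p-values measure the spread between these libraries only, and in bulk RNA a change per cell cannot be told apart from a change in the mix of cells.

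Most mRNAs are removed in steps. The poly(A) tail is first trimmed by PAN2-PAN3 and then by the CCR4-NOT complex, after which DCP2 takes off the cap and XRN1 digests the body of the message from its 5′ end, or the cytoplasmic exosome digests it from its 3′ end. In the nucleus, the exosome with the helicase MTREX, and XRN2, process or destroy faulty and short-lived transcripts and trim precursors of ribosomal RNA.

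The knockdown target was checked first. In replicates 1 to 5, DDX41 stood at 49.1, 49.4, 47.3, 47.2 and 50.5 CPM (counts-per-million after TMM scaling of the libraries) with siCtrl and at 11.5, 13.7, 12.4, 11.2 and 12.3 CPM with siDDX41. The groups lay far apart, and the transcript fell by 74.9% (log2 fold change -1.99, standard error 0.049, edgeR adjusted p = 4.47e-24). Here and below, adjusted p-values are those of the quasi-likelihood test in edgeR, adjusted by the Benjamini-Hochberg method over the 16143 genes that passed the expression filter, genes with an adjusted p under 0.01 are called up or down, and CPM values are listed from replicate 1 to 5 with n = 5 per group. Of 9 markers of bone cells and osteosarcoma lines, SPARC, VIM and COL1A1 were abundant, at 2807 ± 32.8 CPM, 2465 ± 51.0 CPM and 1875 ± 100.3 CPM (SD) in siCtrl cells, whereas IBSP had at most 1 count, BGLAP at most 4 counts and COL1A2 at most 18 counts in any library. SPARC rose and VIM fell, with log2 fold changes of 0.18 and -0.09 (edgeR adjusted p = 1.42e-07 and 0.00175), and COL1A1 was not called (-0.09, edgeR adjusted p = 0.0551). RUNX2, ALPL and SPP1 were less abundant than SPARC, VIM and COL1A1. RUNX2 and ALPL fell and SPP1 rose, with log2 fold changes of -0.40, -0.70 and 0.66 (edgeR adjusted p = 2.24e-09, 5.51e-06 and 6.88e-07). The 9 markers together summed to between 7048 and 7446 CPM, here of the unscaled library total, in every library. The 6 epithelial markers summed to between 979 and 1099 CPM on that scale in siCtrl and between 1559 and 1742 in siDDX41 libraries. Nearly all of this came from KRT8, with the most counts in each siCtrl library, and KRT18, with the most in each siDDX41 library, whose exons partly overlap on opposite strands (log2 fold changes 0.46 and 0.98, edgeR adjusted p = 4.47e-08 and 3.78e-19), while KRT20 was at 0 in every library, VIL1 had at most 3 counts and CDH1 stood at 0.874 ± 0.0687 CPM with siCtrl and 0.928 ± 0.220 CPM with siDDX41. EPCAM stood at 7.99 ± 0.447 CPM with siCtrl and 8.31 ± 0.742 CPM with siDDX41 and was not called (log2 fold change 0.06, edgeR adjusted p = 0.507). Of 4 blood markers, HBB was at 0, SPI1 had at most 2 counts and PTPRC, not called, stood at 0.333 ± 0.0677 CPM with siCtrl and 0.539 ± 0.0964 CPM with siDDX41 (log2 fold change 0.69, standard error 0.26, edgeR adjusted p = 0.0228). CD34 fell from 30.4 ± 1.49 CPM to 4.66 ± 0.9004 CPM (log2 fold change -2.71, standard error 0.080, edgeR adjusted p = 5.27e-20), and carried the summed blood markers from between 28.5 and 32.3 down to between 3.90 and 5.94 CPM of the library total. The part of these marker shifts in the values below was not tested.

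Of the 34 genes, 33 passed the filter. PARN, a poly(A)-specific ribonuclease, was listed at 0 counts in all 10 libraries and could not be tested. CNOT3, a core CCR4-NOT subunit, had between 50 and 96 counts per library, the lowest of the tested members. A transcript of each of these 2 genes matched a second copy on alternate contigs of hg38 (1 contig for PARN and 6 for CNOT3, at least 90% of its length at 99% identity or more), and no other member did. Among 57 further decay genes, LSM2, DXO, SKIC2 and LSM14A had such copies, and they were listed at 0, 0, 2 and 15 counts over all 10 libraries. Whether these low counts reflect low expression was not tested.

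The largest falls after DDX41 knockdown were in PAN2, DCP1A and CNOT11, and the largest rises in EXOSC4, DCP2 and EXOSC7. Of the 33 tested members, 12 rose (36.4%) and 8 fell (24.2%), while 30.3% of all tested genes were called up and 32.1% were called down. The median log2 fold change of the members was 0.00080, and that of all tested genes was -0.0014. The groups of libraries did not overlap for 19 of the 33 members, against 55.9% of all tested genes. At a log2 fold change of at least 0.25 in size, 3 members were up (EXOSC4, DCP2 and EXOSC7, against 21.1% of all genes) and 4 were down (PAN2, DCP1A, CNOT11 and EXOSC6, against 25.4%). DIS3L, at -0.246, was just short of that size.

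**Figure D1:**
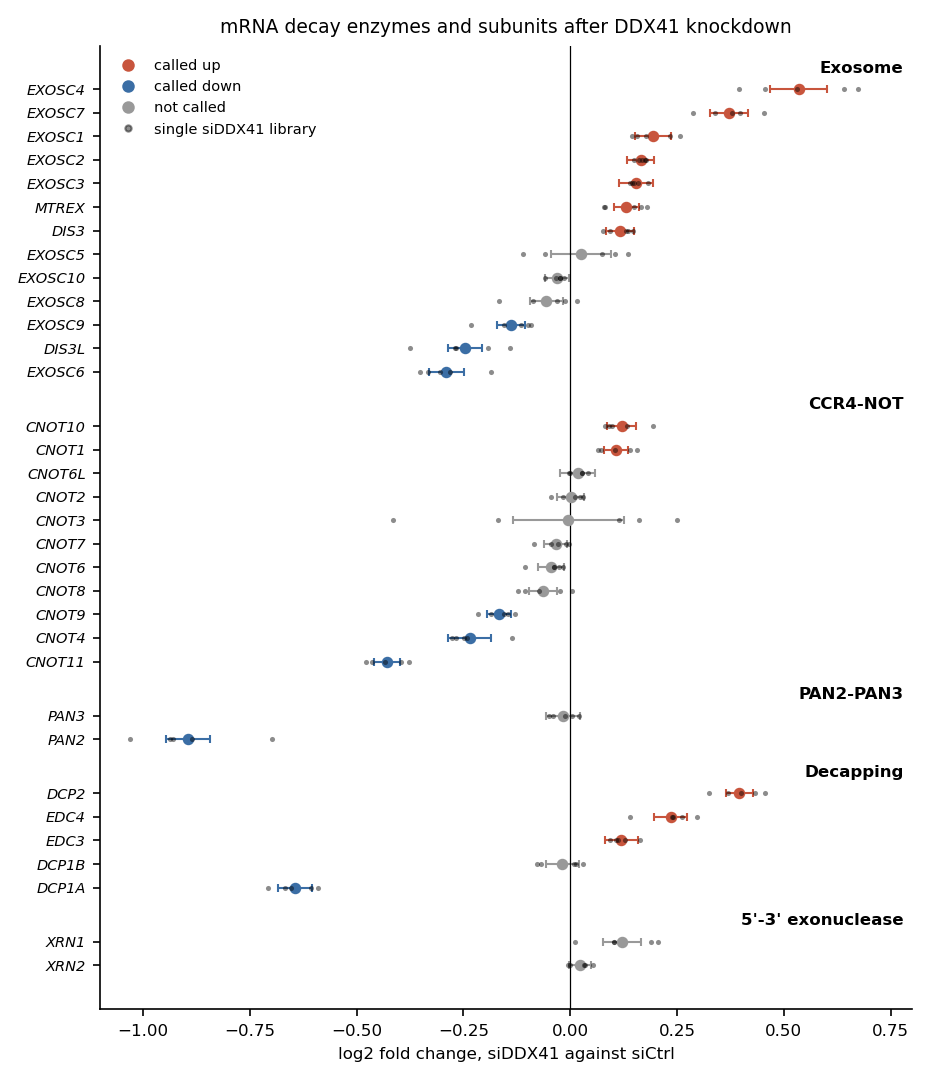
Log2 fold change (x axis) of the 33 tested decay genes (y axis, grouped by complex and ordered by value), siDDX41 against siCtrl, as edgeR estimates with their standard error (large points, coloured by call) and single siDDX41 libraries relative to the siCtrl mean of log2 CPM (small points). PAN2 stands lowest at -0.89 and EXOSC4 highest at 0.54, and the 4 catalytic deadenylase genes of CCR4-NOT lie near 0.

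The largest log2 fold change in size among the tested members was that of PAN2, the catalytic subunit of the deadenylase that starts tail shortening. PAN2 (ENSG00000135473.14, chr12:56316223-56334053 on the minus strand of GRCh38) stood at 67.3, 66.2, 74.1, 62.4 and 68.9 CPM with siCtrl and at 35.3, 41.7, 36.6, 33.1 and 35.5 CPM with siDDX41. Every siDDX41 library was below every siCtrl library, and the transcript fell by 46.2% (log2 fold change -0.89, standard error 0.052, edgeR adjusted p = 1.42e-12). Its partner PAN3, which binds the poly(A)-binding protein and recruits PAN2 to the tail, read 41.7, 37.0, 40.5, 41.5 and 37.7 CPM with siCtrl and 39.3, 39.7, 40.2, 38.5 and 38.3 CPM with siDDX41. The groups overlapped for PAN3 and it was not called (log2 fold change -0.02, standard error 0.041, edgeR adjusted p = 0.724). Summed over both genes, the level went from 107 ± 4.63 to 75.7 ± 3.72 CPM (SD). In this and the later sums, CPM is not divided by length, so longer transcripts weigh more. Exons of PAN2 share 19.5% of their length with the antisense gene CNPY2-AS1, which had 4.72% as many counts and a log2 fold change of -0.999. The library kit keeps strand, but the strand setting of the counting is not given in the sources used here, so reads of the 2 genes may not have been told apart, and the same holds for the antisense overlaps named below. Strand cannot separate overlaps on the same strand. An lncRNA covers 21.3% of the exon length of EDC4, CLEC3B 13.6% of EXOSC7 and BCL2L2-PABPN1 39.3% of PABPN1. These had 1.05%, 0.174% and 0.257% as many counts.

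**Figure D2:**
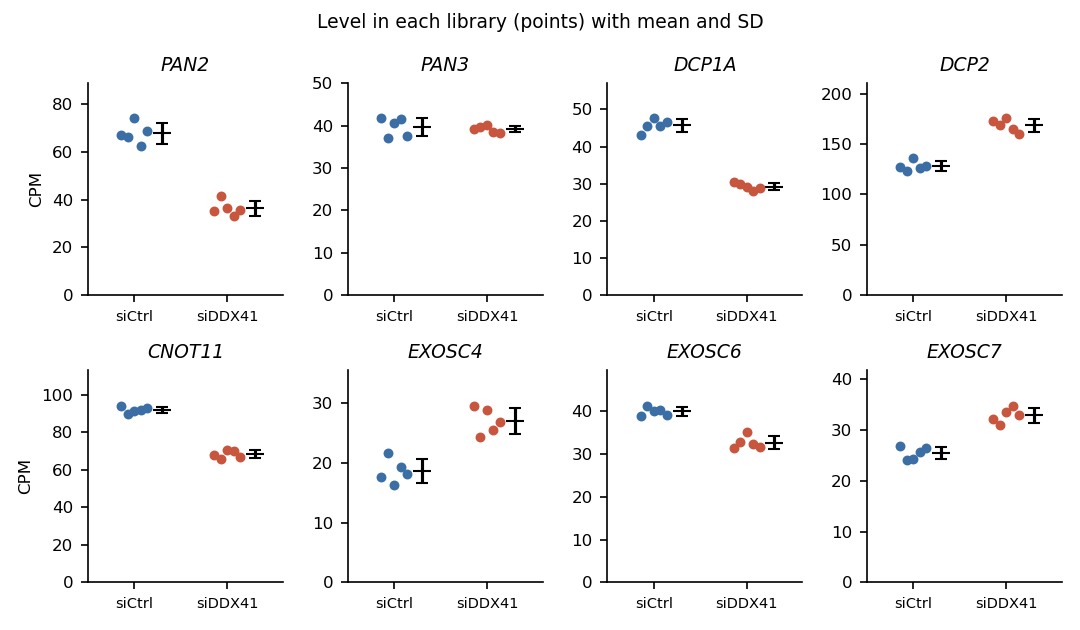
Level in CPM (y axis, from 0) of 8 decay genes in the 5 siCtrl (blue) and 5 siDDX41 (red) libraries, in replicate order from left to right, with mean and SD beside them. The groups are separate for each gene shown except PAN3, whose libraries lie between 37.0 and 41.7 CPM.

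Of the 5 decapping genes, 3 rose (60%), 1 fell (20%) and 1 was not called, where 30.3% of all tested genes rose and 32.1% fell. DCP2 (ENSG00000172795.15, chr5:112976702-113022195, plus strand), the enzyme that hydrolyses the cap, rose from 127, 123, 136, 126 and 128 CPM with siCtrl to 173, 169, 176, 165 and 160.3 CPM with siDDX41. All siDDX41 libraries exceeded all siCtrl libraries, a 1.32-fold level (log2 fold change 0.40, standard error 0.031, edgeR adjusted p = 2.23e-12). Its exons share 0.792% of their length with MCC on the other strand, which had 37.9% as many counts and a log2 fold change of -0.45. DCP1A (ENSG00000272886.5, chr3:53283429-53347586, minus strand), an activating partner of DCP2, went the other way, from 43.2, 45.5, 47.6, 45.7 and 46.7 CPM to 30.4, 30.0, 29.1, 28.0 and 28.8 CPM. Again the groups did not overlap, and the transcript fell by 36.0% (log2 fold change -0.64, standard error 0.040, edgeR adjusted p = 1.03e-14). DCP1B, the paralog of DCP1A, stood at 42.5, 39.2, 41.8, 42.6 and 40.6 CPM with siCtrl and at 39.4, 41.6, 39.1, 42.1 and 41.5 CPM with siDDX41. These groups overlapped and DCP1B was not called (log2 fold change -0.02, standard error 0.039, edgeR adjusted p = 0.669). EDC4, the scaffold that joins DCP1 to DCP2, read 60.2, 63.8, 57.4, 59.3 and 66.2 CPM with siCtrl and 72.3, 75.3, 73.5, 67.6 and 72.4 CPM with siDDX41. The lowest siDDX41 library, replicate 4, lay just above the highest siCtrl library, replicate 5, and EDC4 rose (log2 fold change 0.23, standard error 0.038, edgeR adjusted p = 3.41e-06). EDC3, an enhancer of decapping, had 49.9, 43.4, 48.8, 48.9 and 48.6 CPM with siCtrl and 51.1, 51.6, 52.3, 51.7 and 53.6 CPM with siDDX41. Its call was the least firm of the members called (log2 fold change 0.12, standard error 0.038, edgeR adjusted p = 0.00653), since it was lost when siCtrl replicate 2 or 5, or siDDX41 replicate 3 or 5, was left out (log2 fold change between 0.08 and 0.13 over all 10 such fits). Antisense CLK3 covers 13.8% of the exon length of EDC3 and had 67.1% as many counts and a log2 fold change of -0.28. Summed over the 5 decapping genes, the level went from 324 ± 6.70 to 363 ± 6.75 CPM (SD). Within that sum, DCP2 alone went from 128 ± 4.73 to 169 ± 6.04 CPM (SD), and its canonical transcript is the longest of the 5 at 10110 nt.

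Promoter sequences of the 4 deadenylation and decapping genes with the largest shifts are given because these genes moved in both directions. Each holds the 250 bases before the RefSeq start site (build GRCh38.p14, from 5′ to 3′ on the strand of the gene). Capitals mark 3 motifs searched on both strands, the CCAAT box (CCAAT or ATTGG), the GC box (GGGCGG or CCGCCC) and the ETS core (CCGGAA or TTCCGG), which do not overlap one another here.
PAN2, chr12:56334001-56334250: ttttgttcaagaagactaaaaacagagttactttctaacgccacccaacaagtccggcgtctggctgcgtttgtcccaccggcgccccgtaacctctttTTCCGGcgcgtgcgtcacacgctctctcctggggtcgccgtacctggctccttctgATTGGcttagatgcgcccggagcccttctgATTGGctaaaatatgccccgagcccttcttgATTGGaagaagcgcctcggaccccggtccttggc
DCP1A, chr3:53347544-53347793: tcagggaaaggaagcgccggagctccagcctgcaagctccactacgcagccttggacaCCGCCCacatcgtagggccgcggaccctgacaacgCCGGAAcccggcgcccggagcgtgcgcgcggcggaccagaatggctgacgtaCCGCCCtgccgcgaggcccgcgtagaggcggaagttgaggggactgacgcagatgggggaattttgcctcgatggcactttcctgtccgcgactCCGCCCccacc
CNOT11, chr2:101252636-101252885: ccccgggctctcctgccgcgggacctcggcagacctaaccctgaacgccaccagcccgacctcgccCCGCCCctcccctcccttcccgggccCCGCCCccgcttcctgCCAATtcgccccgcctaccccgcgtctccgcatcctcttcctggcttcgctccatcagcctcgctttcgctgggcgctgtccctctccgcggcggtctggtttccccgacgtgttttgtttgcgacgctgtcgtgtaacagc
DCP2, chr5:112976548-112976797: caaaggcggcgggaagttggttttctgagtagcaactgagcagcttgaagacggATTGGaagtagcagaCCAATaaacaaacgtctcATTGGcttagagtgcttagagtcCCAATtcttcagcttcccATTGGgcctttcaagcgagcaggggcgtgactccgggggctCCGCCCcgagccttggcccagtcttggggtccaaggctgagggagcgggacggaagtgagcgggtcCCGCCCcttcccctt
The RefSeq start lies 96, 53 and 43 bases inside the GENCODE gene for DCP2, PAN2 and DCP1A, so the end of each of these 3 windows, with both GC boxes of DCP2 and the last marked box of PAN2 and DCP1A, is within the annotated gene, while the CNOT11 window ends just before it. The first 3 genes fell and DCP2 rose. PAN2 and DCP1A lie on the minus strand, and CNOT11 and DCP2 on the plus strand. The DCP2 window holds 5 CCAAT boxes and 2 GC boxes, and that of PAN2 holds 3 CCAAT boxes and 1 ETS core. Among all 35116 RefSeq windows of this length, 32% hold at least 1 CCAAT box, 2.93% hold 3 or more and 0.319% hold 5 or more. DCP1A has 3 GC boxes and 1 ETS core, and CNOT11 has 2 GC boxes and 1 CCAAT box, where 42.6% of all windows hold a GC box, 13.9% hold 3 or more GC boxes and 14.5% hold an ETS core. A window was found for 30 of the 34 members. At least 1 CCAAT box was present in 4 of 9 members that rose, 3 of 8 that fell and 4 of 12 tested members not called. For the GC box these were 7 of 9, 5 of 8 and 10 of 12, and for the ETS core 4 of 9, 4 of 8 and 1 of 12. These are matches of letters, not binding sites.

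In the CCR4-NOT complex, the main deadenylase of the cell, 2 of 11 genes rose (18.2%), 3 fell (27.3%) and 6 were not called, where 30.3% of all tested genes rose and 32.1% fell. No deadenylase subunit passed the test. CNOT7 read 166, 165, 161, 167 and 163 CPM with siCtrl and 159, 155, 161, 164 and 163 CPM with siDDX41. CNOT8, its paralog, read 75.6, 77.6, 78.7, 76.2 and 74.2 CPM with siCtrl and 76.7, 72.7, 71.0, 75.2 and 70.3 CPM with siDDX41. For both of these nucleases the groups overlapped. Antisense FAXDC2 covers 4.15% of the exon length of CNOT8, with 6.17% as many counts and a log2 fold change of -0.52. CNOT6, of the other catalytic family, stood at 111, 107, 115, 110.0 and 111 CPM with siCtrl and 108, 109, 108, 109 and 103 CPM with siDDX41, and its paralog CNOT6L at 39.2, 37.0, 40.0, 39.2 and 35.0 CPM and 38.8, 38.8, 38.1, 39.1 and 38.0 CPM. None of the 4 was called, with log2 fold changes of -0.03, -0.06, -0.05 and 0.02 and standard errors of 0.027, 0.033, 0.030 and 0.040 (edgeR adjusted p = 0.262, 0.0813, 0.175 and 0.714).

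The CCR4-NOT genes that were called do not encode its deadenylases. CNOT11 (ENSG00000158435.7, chr2:101252886-101270316, plus strand), which pairs with CNOT10 at one end of the scaffold, stood at 94.1, 89.6, 91.3, 91.5 and 92.9 CPM with siCtrl and at 68.0, 65.9, 70.7, 69.9 and 66.6 CPM with siDDX41. The groups were far apart and CNOT11 fell by 25.7% (log2 fold change -0.43, standard error 0.031, edgeR adjusted p = 4.06e-13). CNOT10 itself read 57.3, 56.6, 57.0, 56.4 and 56.8 CPM with siCtrl and 60.1, 60.5, 60.8, 62.3 and 64.9 CPM with siDDX41. It rose by a small margin without overlap (log2 fold change 0.12, standard error 0.033, edgeR adjusted p = 0.00193). CNOT9, a docking surface for the GW182 proteins of the microRNA pathway, read 121, 115, 115, 116 and 115 CPM with siCtrl and 106, 100.2, 104, 102 and 105 CPM with siDDX41, and fell (log2 fold change -0.17, standard error 0.029, edgeR adjusted p = 8.93e-06). CNOT4, a ubiquitin ligase, had 27.1, 23.7, 25.1, 25.4 and 22.9 CPM with siCtrl and 20.6, 20.5, 21.0, 22.5 and 20.9 CPM with siDDX41. The highest siDDX41 library, replicate 4, lay just below the lowest siCtrl library, replicate 5, and CNOT4 fell (log2 fold change -0.24, standard error 0.050, edgeR adjusted p = 0.000134). CNOT1, the scaffold on which the modules assemble, was at 353, 342, 370.3, 363 and 338 CPM with siCtrl and at 379.7, 369, 389, 371 and 393 CPM with siDDX41. It was called up although the groups overlapped, with siCtrl replicate 3 above siDDX41 replicate 2 (log2 fold change 0.11, standard error 0.029, edgeR adjusted p = 0.00148). Antisense SETD6 covers 12.5% of its exon length, with 4.74% as many counts and a log2 fold change of 0.07. The core subunits CNOT2 and CNOT3 were not called, with log2 fold changes of 0.00080 and -0.0040 (standard errors 0.032 and 0.13). Summed over the 11 genes, the level went from 1098 ± 20.1 to 1080 ± 14.8 CPM (SD).

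Neither 5′-3′ exonuclease passed the threshold. XRN1, the cytoplasmic enzyme, read 37.6, 34.9, 39.9, 38.3 and 35.5 CPM with siCtrl and 42.9, 39.9, 42.4, 39.9 and 37.5 CPM with siDDX41, and XRN2, its nuclear counterpart, read 238, 244, 249, 248 and 237 CPM and 252, 243, 248, 249 and 242 CPM. The groups overlapped for both. XRN2 had a log2 fold change of 0.02 (standard error 0.026, edgeR adjusted p = 0.445). XRN1 was close to the threshold (log2 fold change 0.12, standard error 0.044, edgeR adjusted p = 0.0157) and was called up with upper-quartile scaling, without a filter on low counts, with the replicate block, and without siCtrl replicate 3 or siDDX41 replicate 5.

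Among the 13 exosome genes, 7 rose (53.8%), 3 fell (23.1%) and 3 were not called, beside 30.3% up and 32.1% down among all tested genes. The 3 cap subunits, which bind RNA at the entry of the barrel, all rose. The groups did not overlap for any of them, which also held for 55.9% of all tested genes. EXOSC1 read 24.9, 24.98, 25.2, 26.4 and 25.7 CPM with siCtrl and 28.8, 28.1, 28.3, 29.9 and 30.4 CPM with siDDX41 (log2 fold change 0.19, standard error 0.043, edgeR adjusted p = 0.000189). For EXOSC2 and EXOSC3 the log2 fold changes were 0.17 and 0.15 (standard errors 0.032 and 0.040, edgeR adjusted p = 3.22e-05 and 0.00123). EXOSC3 overlaps 2 antisense genes, TRMT10B over 5.90% of its exon length (27.1% as many counts, log2 fold change -0.10) and DCAF10 over 0.692% (134% as many counts, log2 fold change 0.49). The 6 ring subunits, relatives of bacterial RNase PH that form the barrel, split in direction. EXOSC4 stood at 17.6, 21.8, 16.4, 19.3 and 18.2 CPM with siCtrl and at 29.6, 24.4, 28.9, 25.5 and 26.8 CPM with siDDX41. It rose most of all members, 1.45-fold (log2 fold change 0.54, standard error 0.067, edgeR adjusted p = 2.44e-07), and omitting any single library gave a log2 fold change from 0.49 to 0.60. An antisense transcript overlaps 18.2% of its exon length, with 5.63% as many counts and a log2 fold change of -0.01. EXOSC7 went from 26.8, 24.0, 24.3, 25.7 and 26.4 CPM to 32.2, 31.1, 33.5, 34.8 and 33.1 CPM, also without overlap (log2 fold change 0.37, standard error 0.045, edgeR adjusted p = 1.87e-08). EXOSC6, encoded by a single exon, fell from 38.8, 41.2, 40.0, 40.3 and 39.1 CPM to 31.2, 32.8, 35.0, 32.2 and 31.7 CPM (log2 fold change -0.29, standard error 0.040, edgeR adjusted p = 2.31e-07).

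EXOSC9 had 85.8, 82.5, 86.8, 83.8 and 84.6 CPM with siCtrl and 79.5, 78.3, 76.1, 72.1 and 79.1 CPM with siDDX41, and fell by 9.14% (log2 fold change -0.14, standard error 0.032, edgeR adjusted p = 0.0004). Antisense CCNA2 covers 5.39% of its exon length and, with 247% as many counts, had a log2 fold change of -0.31. EXOSC5 and EXOSC8 were not called (0.02 and -0.06 on the log2 scale, edgeR adjusted p = 0.765 and 0.203), and 16.3% of the exon length of EXOSC8 overlaps SUPT20H on the other strand (97.6% as many counts, log2 fold change -0.39). Of the nucleases that attach to the barrel, DIS3, the main processive enzyme, read 64.4, 63.1, 67.7, 65.1 and 62.9 CPM with siCtrl and 71.5, 69.0, 70.7, 70.9 and 68.1 CPM with siDDX41. It rose without overlap (log2 fold change 0.12, standard error 0.033, edgeR adjusted p = 0.00231), and 10.9% of its exon length overlaps BORA on the other strand, which had 43.5% as many counts and a log2 fold change of -0.75. DIS3L, its cytoplasmic paralog, fell from 52.6, 49.7, 49.2, 52.6 and 50.7 CPM to 42.2, 39.3, 46.2, 44.6 and 42.3 CPM, with no overlap between the groups (log2 fold change -0.25, standard error 0.041, edgeR adjusted p = 3.94e-06). EXOSC10, the nuclear distributive nuclease, was not called (-0.03 on the log2 scale, edgeR adjusted p = 0.331). MTREX, the helicase that feeds RNA to the nuclear exosome, rose from 147 ± 3.16 CPM to 161 ± 5.24 CPM (SD), a log2 fold change of 0.13 (edgeR adjusted p = 0.000183). Antisense PLPP1 covers 7.58% of its exon length, with 10.7% as many counts and a log2 fold change of -0.01. Summed over the 13 genes, the level went from 719 ± 8.41 to 743 ± 12.2 CPM (SD).

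The ratio of 2 paralogs within a library was computed as the log2 ratio of CPM + 0.5 for 5 pairs, and the scaling of libraries enters it only through the added 0.5. DCP1A over DCP1B went from 0.14 ± 0.081 to -0.47 ± 0.083 (SD, n = 5 each), a difference of -0.62 with a rank-based interval from -0.768 to -0.469 (two-sided exact permutation test, p = 0.00794, adjusted p = 0.0198 over the 5 pairs). DIS3 over DIS3L went from 0.34 ± 0.069 to 0.70 ± 0.077 (SD, n = 5 each), a difference of 0.36 with a rank-based interval from 0.222 to 0.497 (two-sided exact permutation test, p = 0.00794, adjusted p = 0.0198 over the 5 pairs). The groups did not overlap for these 2 pairs, and p = 0.00794 is the smallest that the exact permutation test allows with 5 against 5 libraries. CNOT6 over CNOT6L showed a difference of -0.06 with a rank-based interval from -0.183 to -0.00156 (two-sided exact permutation test, p = 0.0397, adjusted p = 0.0496 over the 5 pairs), and its libraries overlapped. XRN1 over XRN2 showed a difference of 0.10 with a rank-based interval from -0.00140 to 0.196 (two-sided exact permutation test, p = 0.0397, adjusted p = 0.0496 over the 5 pairs), also with overlap. With 1 library left out, XRN1 over XRN2 had an adjusted p above 0.05 in each of the 10 cases (difference between 0.07 and 0.12), and CNOT6 over CNOT6L in 9 of them, all but the one without siDDX41 replicate 3 (difference between -0.08 and -0.03). CNOT7 over CNOT8 showed a difference of 0.03 with a rank-based interval from -0.0745 to 0.128 (two-sided exact permutation test, p = 0.429, adjusted p = 0.429 over the 5 pairs). The interval spans the third lowest to the third highest of all 25 differences between an siDDX41 and an siCtrl library and covers 96.8%.

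**Figure D3:**
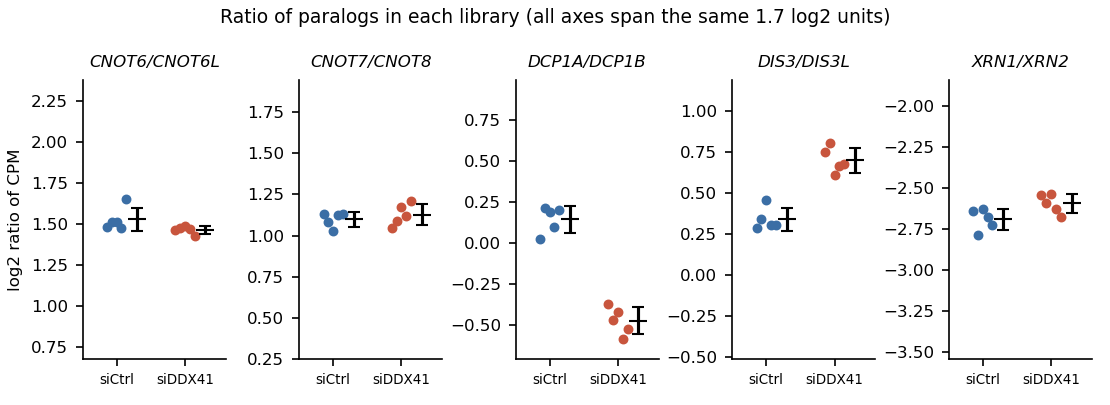
Log2 ratio of the CPM of 2 paralogs (y axis, the same span in each panel but not the same origin) in each siCtrl (blue) and siDDX41 (red) library, with mean and SD beside the points. DCP1A over DCP1B lies lower and DIS3 over DIS3L lies higher in all siDDX41 libraries, and the other 3 pairs overlap between groups.

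The partners of these enzymes were read from a list of 57 further decay genes chosen by role, of which 53 were tested, 27 rose (50.9%) and 13 fell (24.5%), beside 30.3% and 32.1% of all tested genes. Of 12 tested exosome cofactors, 9 rose (75%, against 30.3% of all tested genes), none fell (against 32.1%) and 3 were not called. Their median log2 fold change was 0.20, where that of all tested genes was -0.0014. MPHOSPH6, which binds MTREX to the exosome, went from 30.8, 28.0, 27.8, 30.0 and 27.9 CPM with siCtrl to 47.5, 40.9, 43.98, 45.9 and 44.3 CPM with siDDX41, a 1.54-fold level with separate groups (log2 fold change 0.62, standard error 0.044, edgeR adjusted p = 2.32e-13). SKIC3, the scaffold of the SKI complex that feeds the cytoplasmic exosome, rose from 122 ± 4.72 CPM to 157 ± 4.63 CPM (SD, log2 fold change 0.37, standard error 0.031, edgeR adjusted p = 6.64e-12). Among the activators of decapping, 7 of 12 rose (58.3%, against 30.3% of all tested genes) and 3 fell (25%, against 32.1%). In the Lsm1 to Lsm7 ring, which binds shortened tails, 5 of 6 tested genes rose (83.3%, against the same 30.3%), none fell (against 32.1%) and LSM7 was not called. LSM1 and LSM4 rose most, with log2 fold changes of 0.27 and 0.25 (edgeR adjusted p = 2.82e-07 and 2.35e-08). PATL1, the partner of that ring, fell from 119 ± 4.06 CPM to 89.9 ± 1.49 CPM (SD, log2 fold change -0.40, standard error 0.030, edgeR adjusted p = 9.81e-13), and LSM14B also fell (-0.17 on the log2 scale, edgeR adjusted p = 9.42e-06). LSM1 shares 11.8% of its exon length with BAG4 on the other strand, which had 79.5% as many counts and a log2 fold change of -0.08.

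Of 5 tested scavenger and tailing enzymes, none rose and 4 fell (80%), where 30.3% of all tested genes rose and 32.1% fell. NUDT16, a decapping enzyme, fell from 29.6, 28.4, 29.2, 30.6 and 28.6 CPM with siCtrl to 16.6, 16.9, 18.9, 18.7 and 17.3 CPM with siDDX41, with no overlap (log2 fold change -0.73, standard error 0.048, edgeR adjusted p = 5.48e-14). TUT4, which adds uridines to short tails, fell by 25.9% (log2 fold change -0.43, standard error 0.033, edgeR adjusted p = 9.35e-13). Proteins that bring deadenylases to chosen messages included the largest shifts of the list. Of these 19 genes, 9 rose (47.4%, against 30.3% of all tested genes), 4 fell (21.1%, against 32.1%) and 6 were not called. SAMD4A, a homolog of the fly repressor Smaug, read 98.2, 97.0, 98.4, 99.7 and 96.1 CPM with siCtrl and 201, 199, 209.7, 201 and 202 CPM with siDDX41. The level was 2.07-fold that of siCtrl, with a gap between the groups much wider than either group (log2 fold change 1.05, standard error 0.027, edgeR adjusted p = 1.42e-23). ZFP36, which binds AU-rich elements of inflammatory mRNAs, rose from a low level, 4.28 ± 0.797 CPM, to 7.11 ± 0.319 CPM (SD, log2 fold change 0.73, standard error 0.098, edgeR adjusted p = 1.14e-07). BTG3, an antiproliferative protein that binds CCR4-NOT nucleases, fell by 31.3% (log2 fold change -0.54, standard error 0.038, edgeR adjusted p = 2.00e-13). TNRC6A, a GW182 protein that links microRNAs to CCR4-NOT, fell by 28.1% (log2 fold change -0.48, standard error 0.034, edgeR adjusted p = 2.18e-13). Its paralog TNRC6B rose 1.49-fold (log2 fold change 0.57, standard error 0.033, edgeR adjusted p = 1.61e-15). ZFP36L1, the abundant relative of ZFP36, also rose 1.49-fold, from 271 ± 7.34 CPM to 403 ± 3.82 CPM (SD, log2 fold change 0.57, edgeR adjusted p = 5.30e-18). RC3H1, or Roquin, rose 1.56-fold (log2 fold change 0.64, edgeR adjusted p = 5.77e-14). These 3 were picked after their values were seen. Of 5 poly(A)-binding proteins and their partners, PAIP2 and PABPC4 rose (0.17 and 0.13), PAIP1 and PABPN1 fell (-0.32 and -0.23), and PABPC1 was not called (edgeR adjusted p = 1.84e-05, 0.000112, 1.73e-10, 3.99e-06 and 0.816).

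**Figure D4:**
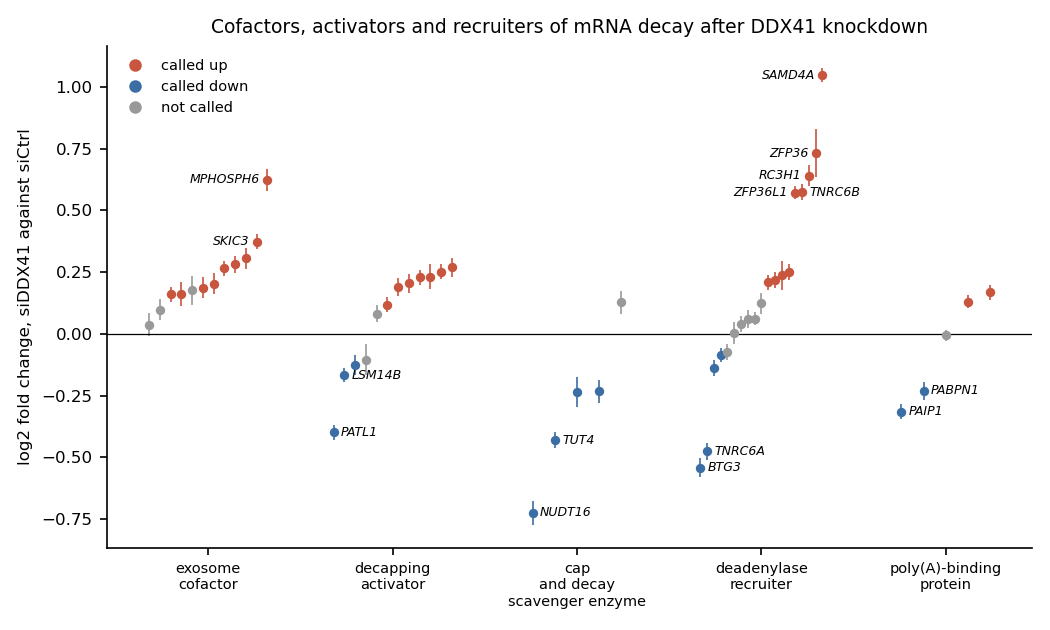
Log2 fold change with standard error (y axis), siDDX41 against siCtrl, of the 53 tested partner genes, grouped by role (x axis), ordered by value within a role and coloured by call. No tested exosome cofactor lies below 0, and SAMD4A stands highest at 1.05.

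Levels of different members can be compared only per length. Per kb of the Ensembl canonical transcript, XRN2 was the highest member in siCtrl cells at 71.4 ± 1.61 CPM per kb (SD, n = 5), and CNOT3 the lowest tested, at 1.10 ± 0.192. EXOSC9 was the highest exosome ring or cap subunit at 53.4 ± 1.06, and EXOSC6 the lowest at 7.72 ± 0.188. Among the CCR4-NOT nucleases, CNOT8 was followed by CNOT7, CNOT6 and CNOT6L, at 31.3 ± 0.704, 23.8 ± 0.354, 17.8 ± 0.503 and 4.34 ± 0.234 CPM per kb, and each neighbour in this order differed by more than the SDs. DCP1B stood above DCP1A (20.3 ± 0.705 against 7.71 ± 0.280), and PAN2 above PAN3 (15.0 ± 0.945 against 7.10 ± 0.395). In siDDX41 cells PAN2 came down to 8.06 ± 0.707, close to PAN3 at 7.02 ± 0.146. The length used matters here, and both lengths come from a later GENCODE release than the one the authors used. With the union of all annotated exons, XRN2 and CNOT3 still stood at the ends and EXOSC9 still led the exosome ring and cap, but EXOSC5 was the lowest of these (3.21), CNOT6 (16.9) passed CNOT7 (15.0) and EXOSC8 went from 38.5 to 3.43 CPM per kb. On that length DCP1B and DCP1A were closer in siCtrl cells, at 8.96 and 7.49 CPM per kb. PAN2 stood above PAN3 with siCtrl (9.31 against 6.25 CPM per kb) but below it with siDDX41 (5.00 against 6.17 CPM per kb), so the order of this pair after knockdown depends on the length.

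**Figure D5:**
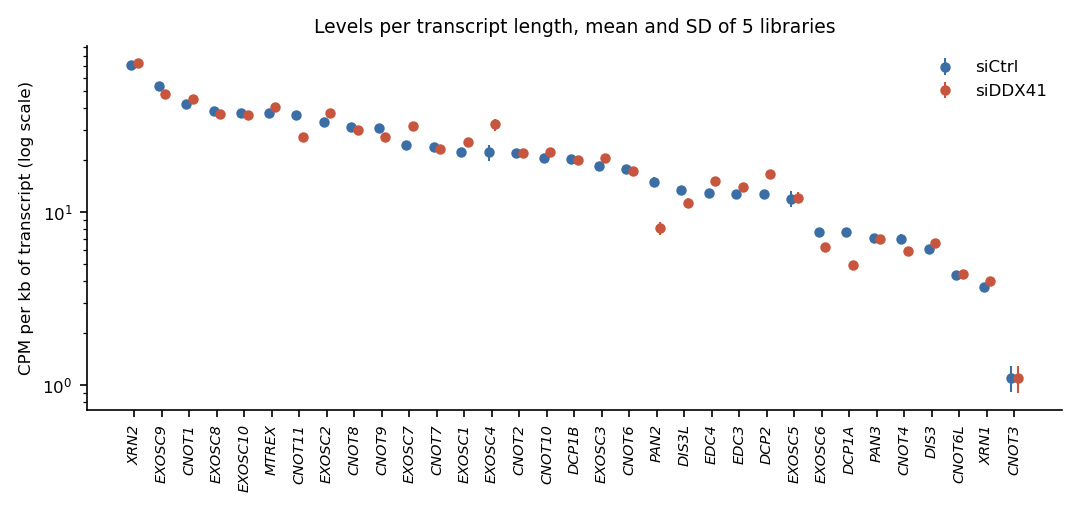
Level per kb of canonical transcript (y axis, log scale) of the 33 tested members (x axis, ordered by the siCtrl level) in siCtrl (blue) and siDDX41 (red) cells, as mean and SD of 5 libraries. Levels run from 71.4 for XRN2 to 1.10 CPM per kb for CNOT3 with siCtrl, and the gaps for PAN2 and DCP1A are the widest downward.

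Transcript features were read off the canonical transcripts. The median GC content was 45.8% for the 12 members that rose, 46.0% for the 8 that fell and 41.7% for the 13 not called, with median canonical lengths of 3258, 3800 and 2844 nt and median exon numbers of 10, 11 and 12. Over all tested genes, the median GC content was 46.0% for genes called up, 50.4% for genes called down and 48.3% for genes not called. These medians are given as a description without a test.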

How the data were processed

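Polyadenylated RNA of U2OS cells was measured in 5 siCtrl and 5 siDDX41 libraries. The authors deposited raw counts per gene, with single reads from a stranded mRNA kit, demultiplexed with bcl2fastq 2.19, aligned to hg38 with STAR 2.7 and counted with featureCounts 1.6. Whether counting used strand, and what was done with reads matching several places, is not given in the sources used here. The 10 tables were joined, and names, positions and lengths came from GENCODE release 44. The authors used an earlier GENCODE release, so lengths and exon overlaps given here may differ from those behind the counts. Genes passing filterByExpr of edgeR 4.0.16 in R 4.3.3, 16143 of 63299, were TMM-scaled and tested with the robust quasi-likelihood test and Benjamini-Hochberg adjustment, calling genes at an adjusted p under 0.01. On simulated data for 15873 genes, 152 of 200 genes changed by 1.5-fold were recovered, with 3 false calls. In the real data 62.4% of tested genes were called, and most called members changed by less than 1.5-fold. The simulation therefore does not give the recovery or false calls for such a setting. The same-group libraries differed by more than counting noise (chi-square per degree of freedom between 1.83 and 6.22 over 20 pairs), and the biological coefficient of variation was 3.65%. Paralog ratios used the exact permutation test in scipy 1.17.1.

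The members and lists were chosen with earlier results of these data known. Values in every library are given for up to 3 called members per role and direction with the largest change and for both genes of each paralog pair, and up to 2 called genes per role and direction are named among the other decay genes. PAN3, MPHOSPH6, NUDT16 and SAMD4A were added to those with a value in every library after their values were seen. Alternatives were the DESeq2 1.42.0 Wald test, its size factors, upper-quartile scaling, no filter or a stricter filter of 10 counts, an adjusted p under 0.05, a log2 fold change of at least 0.25, the replicate number as a block, pseudocounts of 0 and 2 CPM for the ratios, and leaving out each library.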

Additional observations from a re-analysis of the deposited data

Results flagged for a closer look

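In 5 of the 106 groups of 5 libraries examined, 1 library lay far from the others, where chance gives about 1 in 20 groups. CNOT4 stood at 22.5 CPM in siDDX41 replicate 4 against 20.5 to 21.0 CPM in the other siDDX41 libraries. CNOT9 stood at 121 CPM in siCtrl replicate 1 against 115 to 116 CPM in the others. CNOT6 stood at 103 CPM in siDDX41 replicate 5 against 108 to 109 CPM. EDC3 stood at 43.4 CPM in siCtrl replicate 2 against 48.6 to 49.9 CPM, and was not called without that library. TNRC6B stood at 179 CPM in siDDX41 replicate 4 against 187 to 189 CPM.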

How the results depend on the processing

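Requiring a log2 fold change of at least 0.25 left 3 of the 33 tested members up and 4 down. Of the 53 tested further decay genes, it left 13 up and 6 down, both by construction of that setting. At that size, 21.1% of all tested genes were up and 25.4% were down. Members called stayed between 11 and 13 up and at 8 down with 1 library left out. Over all genes tested in those fits, between 4648 and 4823 were up and between 4968 and 5121 down. The main fit called 4890 up and 5178 down. Of the further decay genes, 27 up and 13 down as reported, 11 were called down with the DESeq2 Wald test, DESeq2 size factors, upper-quartile scaling, no filter or the replicate block, and 31 were called up with upper-quartile scaling. An adjusted p under 0.05 gave 33 up and 14 down. At that threshold, the shares of all tested genes called up and down were also above the 30.3% and 32.1% at 0.01. The CNOT3 log2 fold change, not called, was -0.0040 and turned to 0.0037 with the DESeq2 Wald test, 0.0026 with DESeq2 size factors, 0.012 with upper-quartile scaling and 0.00097 without a filter, and the cause was not tested. Some members near 0 changed sign with 1 library left out, none of them called: EXOSC5 between -0.036 and 0.066, CNOT2 between -0.012 and 0.015, CNOT3 between -0.066 and 0.095, CNOT6L between -0.012 and 0.034, and PAN3 between -0.042 and 0.0015. Others not called kept their sign but moved in size. EXOSC8 lay between -0.072 and -0.027, DCP1B between -0.038 and -0.0013 and CNOT6 between -0.059 and -0.028. CNOT7 lay between -0.043 and -0.018 and XRN2 between 0.013 and 0.032. With 1 library left out, the ratio differences ranged between -0.077 and -0.032 for CNOT6 over CNOT6L and between 0.074 and 0.12 for XRN1 over XRN2. For CNOT7 over CNOT8 the range was between 0.0090 and 0.049. These fits have fewer samples behind each test.

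Same-numbered libraries had correlations between -0.052 and 0.045 and 1 of 10 libraries correlated best with its own number. No pairing was visible in these values, and the labels do not say what same-numbered libraries share. With the replicate block, 21 members were called in place of 20, and 20 were called in both. For the ratios, a sign-flip permutation within replicate numbers cannot give a p below 0.0625 (adjusted p 0.0781), so the DCP1A/DCP1B log2 ratio difference (-0.62), the DIS3/DIS3L log2 ratio difference (0.36), the CNOT6/CNOT6L log2 ratio difference (-0.064) and the XRN1/XRN2 log2 ratio difference (0.097) could not pass under this block.

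Scaling moved the median of all tested genes by at most 0.017. Counts are relative to the total of each library, so a change common to all transcripts cannot be seen. PARN could not be tested at 0 counts, and CNOT3 was tested on few.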
